A study of Anas platyrhynchos with 2 samples.

Results

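Isolated genes, the genes that lie farthest from their neighbours, were described in the Fujian Longyan Shan-ma duck (Anas platyrhynchos), whose genome was assembled nearly from telomere to telomere. These are 150 of the 11383 genes in the count tables, chosen by distance alone and not by expression. They were sought on the 23 autosomes on which the outermost gene ends at 10 Mb or more. A gene could be chosen if it had at least 2 exons, a neighbour in the table on both sides, and a span outside the 200 widest. Of 8580 such genes, the 150 with the largest distance to the nearer neighbour were taken, and the other 8430 served as comparison genes. RNA was counted in 2 libraries with no replicates. The first, called A, was labelled with 5 tissues (blood, intestine, liver, pancreas and stomach), and the other, called B, with 9 (brain, eye, heart, kidney, lung, muscle, ovary, skin and spleen). The series text names an adult female and an adult male, with testis in place of ovary in the male, and pooling of all collected tissues, so the content of each library beyond its label is not known. Neither a treatment nor a genotype other than the breed is given.

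Vertebrate genomes alternate gene-rich stretches with gene deserts, long intervals without protein-coding genes. In well-studied vertebrates some deserts hold distant enhancers that act on a gene at the border, often a regulator of development, while others appear to be dispensable. Birds carry a few large chromosomes and many small, gene-dense ones. The gene IDs of the files matched 0 of 26024 entries of a duck reference table, so genes are given by position on the study's own assembly, and nothing is said of their products. No base sequence of that assembly was used.

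Counted reads numbered 20047449 in A and 41792653 in B. The isolated genes held 142135 reads in A, 0.709% of the total (Clopper-Pearson 95% interval 0.705 to 0.713), and 300073 reads in B, 0.718% (0.715 to 0.721). They were 1.75% of the genes that met the other criteria and held 0.865% of the reads of those genes in A and 0.879% in B. Intervals cover counting error only, and because mates of a pair were counted separately they are too narrow. With 1 library per label no test across replicates was possible, and differences are given as measured.

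The gaps that defined the set ran from 184 kb to 1561 kb on the nearer side, with a median of 283 kb. On the farther side the median was 499 kb and the maximum 2787 kb. The nearer gap reached 500 kb for 26 genes and 1 Mb for 4. The farther gap reached 1 Mb for 30 genes. The most isolated gene lay on the minus strand of chromosome 4 at 42207415 to 42240046, with 6 exons, 1754 kb from its left and 1561 kb from its right neighbour. It had 224 reads (1.91 RPKM, counted reads scaled to a common library total and to a kilobase of exon) in A and 577 reads (2.36 RPKM) in B. Next came a gene of 16 exons on chromosome 1 at 100192454 to 100363049, with gaps of 2074 and 1176 kb, at 14.7 RPKM in A and 13.9 RPKM in B. The genes ranked 3 and 4 by nearer gap were neighbours, each with 2 exons, on chromosome 1 at 158718307 to 158725941 and at 159832457 to 159837258. A gap of 1107 kb separated them. The left one had 1.53 and 1.29 RPKM in A and B, and the right one 5.21 and 4.62 RPKM. The gene ranked 5, at 83542101 to 83647907 on chromosome 2 with 12 exons, had 2.23 and 2.18 RPKM. Of these 5 genes 4 were below 6 RPKM in both libraries, a bound set after the values were seen. The median level of all isolated genes was 5.45 RPKM. At the limit of the set, the last gene inside, at 40579161 to 40649065 on chromosome 6, had a nearer gap of 184.4 kb and 1.82 and 3.11 RPKM. The first gene outside, at 12151087 to 12162088 on chromosome 5, had a nearer gap of 184.2 kb and 2.85 and 3.81 RPKM.

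**Figure D1:**
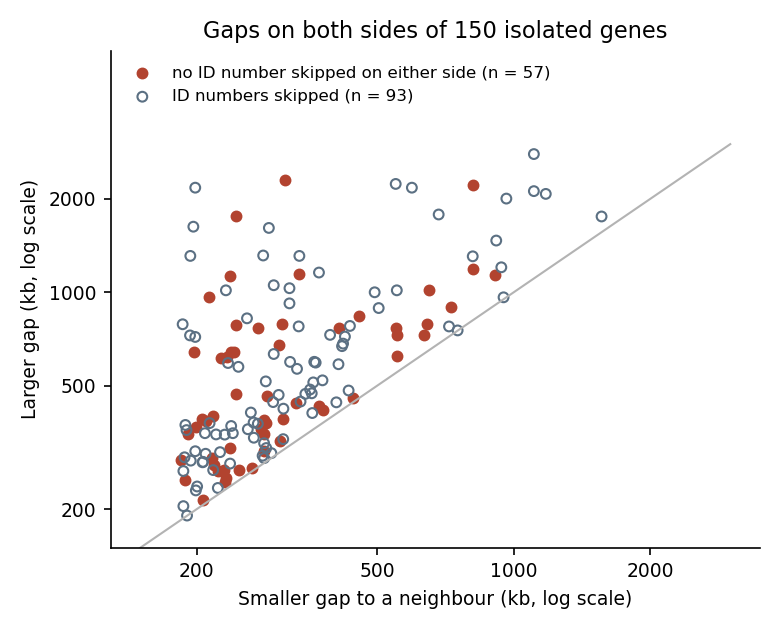
Smaller gap (horizontal axis, kb, log scale) against larger gap (vertical axis, kb, log scale) for each of the 150 isolated genes, 1 point per gene; filled points have no skipped ID number on either side and the line marks equal gaps. Filled points reach 909 kb on the smaller gap and open points 1561 kb, and 71 genes have gaps within 1.5 times of each other.

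Not every such gap is shown to be empty. IDs are numbered in steps of 10, and numbers missing from the table may belong to genes that were not analysed here. For 57 isolated genes (38.0%) no number was missing on either side. Numbers were missing on 1 side for 55 and on both sides for 38, so 93 (62.0%) had a skip, against 40.4% of comparison genes. The share was not particular to the set. It was 64.2% in comparison genes with a nearer gap of 50 to 100 kb and 72.5% in those from 100 kb to the limit. A skip on both sides was found for 25.3% of isolated and 4.85% of comparison genes. Per length of gap the order was the opposite. Gap length chose the set and is also the divisor of this rate, so the rate is not independent of the choice. The 268 gaps beside isolated genes summed to 141 Mb, 13.9% of the extent of these autosomes, and held 434 missing numbers, or 3.07 per Mb. The other 8650 gaps held 8.53 per Mb. The skips were uneven. On chromosome 33 the gene at 8297759 to 8306577 had 62 missing numbers to its left and 15 to its right, and the gene at 9276502 to 9289869 had 27 and 30. The gaps beside these 2 genes are therefore not shown to be free of genes.

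Isolated genes were expressed at lower levels than the comparison genes. Their median level, the mean RPKM of both libraries, was 5.45 RPKM (quartiles 2.17 and 11.1), against 9.99 RPKM (4.09 and 23.5), a ratio of 0.545. In A the medians were 5.33 RPKM for isolated and 9.98 RPKM for comparison genes, and in B 5.53 and 10.1 RPKM. Of the 150 isolated genes 106 (70.7%) lay below the median of the comparison genes. High levels were less frequent: 7 isolated genes (4.67%) reached 50 RPKM, against 11.5% of comparison genes. A level under 1 RPKM was found for 12 isolated genes (8%) and for 5.42% of comparison genes. In reads per gene, without scaling by exon length, the medians were 23.8 CPM (reads scaled to a common total only) in A and 24.8 CPM in B, against 39.0 and 39.5 CPM.

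The low level did not begin at the limit of the set. Over classes of the nearer gap the median level went from 12.3 RPKM in 1960 genes with a neighbour within 1 kb to 10.5 RPKM at 1 to 5 kb, 9.59 RPKM at 5 to 10 kb and 9.16 RPKM at 10 to 20 kb. It was 8.05 RPKM at 20 to 50 kb, 7.91 RPKM at 50 to 100 kb and 6.15 RPKM in the 193 genes between 100 kb and the limit. Each class was thus lower than the one before it, and the isolated genes came last. The share of genes at 50 RPKM or more was 12.9% in the closest class and 5.18% in the class next to the limit. The share under 1 RPKM was 3.52% in the closest class, 8.43% at 20 to 50 kb and 7.48% at 50 to 100 kb. In the class next to the limit it was 12.95%, more than the 8% of the isolated genes. Across all 8580 genes Spearman's rho between nearer gap and level was -0.132, a weak relation given as a description. Levels come from the 2 libraries and gaps from the annotation alone, over whose exons the reads were counted. Exon length, by which RPKM is divided, was itself larger at larger gaps (rho 0.139). With CPM in place of RPKM rho was -0.062. Within the isolated genes rho was -0.105 over 150 genes.

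**Figure D2:**
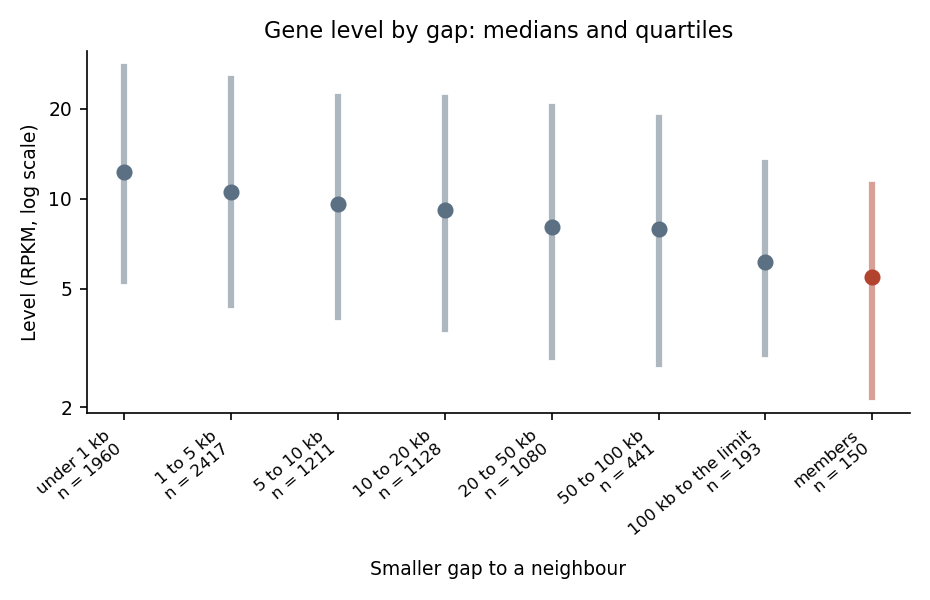
Median level (points) and quartiles (bars) in RPKM, mean of both libraries on a log scale, for genes grouped by the smaller gap to a neighbour; the red point marks the isolated genes. Medians go from 12.3 RPKM with a neighbour within 1 kb to 5.45 RPKM in the isolated genes, while the quartile ranges of all classes overlap.

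The median level was similar with and without missing ID numbers. The 57 isolated genes without a skip had a median of 5.32 RPKM (quartiles 2.16 and 12.2), and the 93 with a skip 5.70 RPKM (2.21 and 10.6). Comparison genes without a skip had 10.1 RPKM and those with skips on both sides 9.52 RPKM. Very low levels were uneven, with 1 of the 57 and 11 of the 93 under 1 RPKM. The 3 isolated genes on chromosome 33 had 0.381, 0.0838 and 0.0957 RPKM, and without them the median of the other 147 was 5.70 RPKM.

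Isolated genes tended to be wide, with long introns. Their median span was 52.9 kb, against 18.9 kb in comparison genes, although the 200 widest genes had been left out of both. They had a median of 7 exons, against 9. The mean intron of a gene had a median length of 5.45 kb, against 1.66 kb, and the longest intron 18.7 kb, against 4.88 kb. An intron of at least 50 kb occurred in 28 isolated genes (18.7%) and in 4.73% of comparison genes. The longest was an intron of 139 kb in a gene of 7 exons on chromosome 2, at 15477167 to 15690198, which had 456 reads (2.43 RPKM) in A and 1017 reads (2.60 RPKM) in B. Over all 8580 genes the nearer gap was related to mean intron length with rho 0.397 and to span with rho 0.287, while its rho with exon number was -0.069. Genes with long intervals outside thus tended to have long intervals inside.

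Their exons were longer as well. The summed exon length had a median of 4216 bp, against 3402 bp. The last exon, read in the direction of the gene, had a median of 2326 bp, against 1595 bp, and the first exon 293.5 bp, 1.47 times the median of comparison genes. In the 193 comparison genes with a nearer gap from 100 kb to the limit, medians were similar, at 4258 bp of summed exon and 2255 bp of last exon. Inner exons differed less, with a median over genes of 144 bp against 127.5 bp. The last exon was the longest in 124 isolated genes (82.7%) and in 86.7% of comparison genes. The files do not separate coding from untranslated parts of an exon. The summed exon length was a multiple of 3 in 30.7% of isolated genes and in 33.8% of comparison genes. The longest summed exon length, 16763 bp in 17 exons, belonged to a gene on chromosome 4 at 44792082 to 44935691, with 1.66 RPKM in A and 1.76 RPKM in B. The widest isolated gene spanned 252 kb on chromosome 7, at 9455601 to 9707757, with 26 exons, and had 5.23 and 5.31 RPKM.

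Wide and compact genes stood side by side in the set. At one end 42 isolated genes (28.0%) spanned at least 100 kb, against 7.95% of comparison genes. At the other end 35 (23.3%) spanned under 10 kb, against 30.5% of comparison genes. Of these 35 compact genes 18 had 2 exons, 51.4%, while 12.7% of comparison genes of that span did. In the whole set 22 genes (14.7%) had 2 exons, against 4.99% of comparison genes. Their summed exon length had a median of 3526 bp, against 2558 bp in 421 comparison genes of 2 exons, and the median intron was 1.22 kb, against 1.53 kb. They were therefore mostly short genes with 1 long exon. An example is the gene at 11893434 to 11902100 on chromosome 10, with a last exon of 6744 bp, which had 257 reads (1.89 RPKM) in A and 573 reads (2.02 RPKM) in B.

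The gap in level between isolated and comparison genes was widest among compact genes. Isolated genes spanning under 10 kb had a median of 3.14 RPKM, against 13.1 RPKM. Summed exon length, by which RPKM is divided, also differed in this class, with medians of 3148 bp and 1941 bp. So did exon number, with medians of 2 and 5 exons, and comparison genes of 2 exons had 4.73 RPKM over all spans. Span and exon number were not held constant together. At 10 to 30 kb the medians were 8.66 RPKM in 24 isolated genes and 10.8 RPKM, at 30 to 100 kb 5.84 RPKM in 49 and 8.94 RPKM, and at 100 kb or more 5.30 RPKM in 42 and 6.32 RPKM. Between span and level rho was -0.148 over 8430 comparison genes and -0.001 over 150 isolated genes. Isolated genes were lower than all comparison genes in each class of span, and the ratio ran from 0.240 to 0.838. This did not hold throughout against the comparison genes with a nearer gap of at least 50 kb. Those had 8.88 RPKM under 10 kb, 9.03 RPKM at 10 to 30 kb and 7.46 RPKM at 30 to 100 kb. At 100 kb or more they had 4.63 RPKM, less than the isolated genes. Against all comparison genes, isolated genes were also lower in each class of exon number. The medians went from 3.12 RPKM against 4.73 RPKM at 2 exons to 5.98 RPKM against 8.73 RPKM at 17 or more. The 15 isolated genes with under 2 kb of exon had a median of 2.39 RPKM, against 19.8 RPKM in comparison genes. In the 47 with at least 6 kb of exon it was 4.94 RPKM, against 6.65 RPKM.

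**Figure D3:**
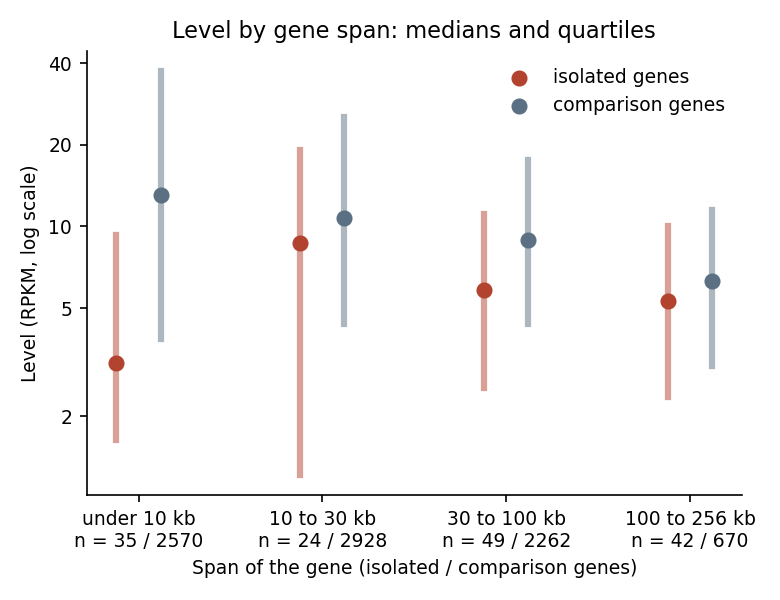
Median level (points) and quartiles (bars) in RPKM on a log scale for isolated genes (red) and comparison genes (grey) in 4 classes of gene span, with the number of each under the axis. The medians are 3.14 and 13.1 RPKM under 10 kb and lie closer, at 5.30 and 6.32 RPKM, from 100 kb upward. Exon number was not held constant within a class.

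The 3 most abundant isolated genes had 2 exons and spanned under 10 kb. The highest level was that of a gene of 2 exons on chromosome 1 (plus strand) at 47982105 to 47984678, with 10521 reads (321 RPKM) in A and 21477 reads (315 RPKM) in B. The next was a gene of 2 exons at 19574816 to 19578404 on chromosome 12, with 227 and 236 RPKM. A further gene of 2 exons, at 69658526 to 69667911 on chromosome 3, had 128 RPKM in both libraries. Of the other isolated genes with 2 exons 18 were below 10 RPKM and 1 was at 11.3 RPKM. Genes with more exons followed. A gene of 7 exons at 27223264 to 27249827 on chromosome 4 had 125.5 RPKM in A and 123 RPKM in B. A gene of 6 exons at 95210042 to 95223904 on chromosome 3, whose left neighbour was 2233 kb away, had 99.5 and 103 RPKM. Together these 5 genes held 23.2% of the reads of all isolated genes in A and 22.95% in B. The gene with 50 exons on chromosome 2, at 134723509 to 134761873, came next with 81.2 and 85.0 RPKM. Its longest intron was 3.06 kb, short for this set.

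The lowest levels rested on few reads. A gene of 11 exons at 26535361 to 26556328 on chromosome 9 had 2 reads in A and 0 in B, where a count of 0 allows up to 3 counts, or 0.0718 CPM. The 2 genes on chromosome 33 named for their missing numbers followed, with 3 and 12 reads in A and B for the right one and 6 and 3 reads for the left one. The gene of most exons in the set, 56 over 178 kb at 89959806 to 90137964 on chromosome 1, had 67 reads (0.284 RPKM) in A and 153 reads (0.311 RPKM) in B. The fifth lowest was the other gene of chromosome 33, at 6979358 to 6988339, with 67 and 140 reads. Its 2 exons sum to 8773 bp, so its level of 0.381 RPKM is low for its number of reads. Inner exon lengths were compared only for genes with at least 2 inner exons. Of the isolated genes 2 had the same inner exon lengths as some other gene. They were the one at 9276502 to 9289869 on chromosome 33 and one at 19939702 to 20062757 on chromosome 4. Multi-mapping reads were left out, so the counts of these 2 genes may be too low if their copies are similar in sequence. None of the 150 genes lacked reads in both libraries, whereas 11 of the 8430 comparison genes did. Fewer than 10 reads over both libraries were found for 2 isolated genes (1.33%) and for 0.380% of comparison genes.

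Some isolated genes were neighbours of each other. A wide gap counts for the gene at each of its ends, so such runs are not independent of the rule. How many runs the rule alone would give was not computed. The set fell into 88 genes standing alone, 28 runs of 2 and 2 runs of 3, which gives 32 gaps with an isolated gene at both ends. Of these gaps 21 held no missing number. The widest, 2172 kb on chromosome 7, separated a gene of 8 exons at 39812824 to 39818266, at 9.96 and 10.2 RPKM in A and B, from a gene of 2 exons at 41990543 to 41995850, at 0.651 and 0.625 RPKM. In it 6 numbers were missing. The second widest, 1754 kb on chromosome 4, lay to the left of the most isolated gene and held no missing number. The gene beyond it, at 40443945 to 40453891, had 7.02 and 7.16 RPKM. The third, 1309 kb on chromosome 33, held 62 missing numbers. The fourth was the gap of 1107 kb on chromosome 1 given above. The fifth, 1014 kb on chromosome 5, separated a gene at 42479555 to 42624167 with 9.52 and 8.46 RPKM from one at 43637676 to 43765002 with 5.50 and 6.46 RPKM. Levels at the ends of such a gap were not alike. The higher was a median of 4.19 times the lower, against 3.49 times over all 8918 pairs of neighbours, and rho between the ends was -0.065 over 32 pairs, against 0.089 over all pairs.

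Genes across the gap were also low in median level, in a lesser degree. The 236 neighbours that were no members themselves had a median level of 6.40 RPKM and a median span of 37.1 kb. All other genes of these autosomes had 9.72 RPKM and 18.8 kb. A level under 1 RPKM was found for 9.32% of these neighbours, more than the 8% of isolated genes, and for 5.81% of all other genes. Of these neighbours 27 (11.4%) were among the 200 widest genes, against 2.02% of the other genes. Without the 200 widest genes the medians were 8.16 RPKM in neighbours and 9.90 RPKM in other genes. Seen from the isolated genes, 26 (17.3%) stood next to 1 of the 200 widest genes, against 3.99% of comparison genes. The isolated genes not next to one had a median level of 5.26 RPKM, and those next to one 6.56 RPKM. Strand showed little pattern: the isolated gene had the same strand as its left neighbour in 48.7% of cases, against 51.9% in comparison genes. The farther neighbour lay on the 5′ side in 45.3% of isolated genes, against 53.9%.

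Isolated genes were concentrated on the largest chromosomes. Chromosomes 1 to 4 carried 102 of the 150 (68.0%), against 43.3% of comparison genes. There 2.72% of the genes that met the other criteria were isolated, against 1.15% on the other autosomes of 30 Mb or more and 0.912% on those of 10 to 30 Mb. Chromosome 2 had the most, 32 of 988 (3.24%), followed by chromosome 1 with 28 of 1410 (1.99%), chromosome 3 with 24 of 815 (2.94%) and chromosome 4 with 18 of 538 (3.35%). Chromosomes 7 and 12 stood out among the smaller ones, with 8 of 322 (2.48%) and 7 of 258 (2.71%). Chromosomes 20, 21 and 25, with 580 such genes, had none. Chromosome 33 had 3 of 68 (4.41%), and 72.1% of its genes that met the other criteria had a skip, the highest share among the 23 autosomes. Pooled over the 23 autosomes, isolated genes lay farther in Mb from the nearer chromosome end, at a median of 24.9 Mb against 10.7 Mb. Chromosome length was not held constant in this difference. As a percent of that length, positions were similar. Their quartiles and median were 29.3, 52.5 and 77.5% in isolated genes, against 27.0, 50.3 and 72.3% in comparison genes.

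**Figure D4:**
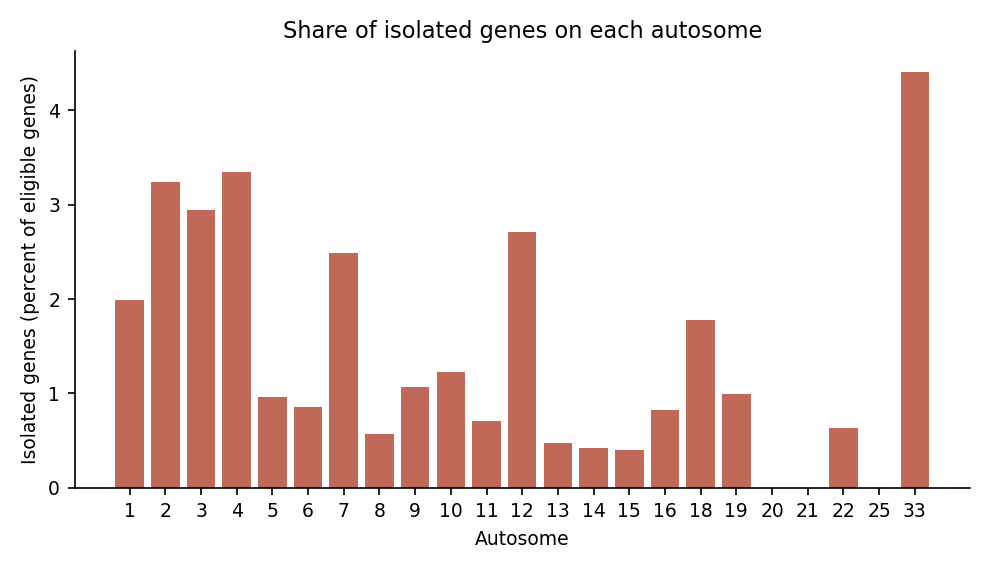
Isolated genes as a percent of the genes that met every criterion but the gap, for each of the 23 autosomes. Chromosomes 2, 3 and 4 lie near 3%, chromosomes 20, 21 and 25 at 0, and the highest bar, chromosome 33, stands for 3 genes.

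The median of isolated genes was the lower one on 19 of the 20 autosomes that carried any, many of them with few such genes. The exception was chromosome 11, where 2 isolated genes had a median of 18.7 RPKM, against 9.27 RPKM in comparison genes. On chromosome 1 isolated genes had a median of 4.93 RPKM, against 8.71 RPKM in comparison genes, and on chromosome 2 4.45 RPKM, against 9.80 RPKM. On chromosome 3 the medians were 8.95 and 9.51 RPKM, the nearest among chromosomes 1 to 4, and on chromosome 4 6.93 and 9.76 RPKM. On autosomes of 30 Mb or more the medians were 5.91 RPKM in 121 isolated genes and 9.49 RPKM in comparison genes. On those of 10 to 30 Mb they were 3.10 RPKM in 29 and 10.99 RPKM.

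The comparison between the labels found little difference among isolated genes. Log2 ratios of B over A were taken for the 147 isolated genes that reached 10 reads in A or B, after scaling for depth with TMM factors. Their median was 0.013 (quartiles -0.06 and 0.09), against -0.006 in comparison genes and -0.001 over all 11256 tested genes. None of the 147 was 2-fold higher in B, where 0.489% of all tested genes were, and none was 2-fold higher in A, where 0.267% were. With shares this small among all genes, the counts of 0 say little about a set of this size. The spread of the log2 ratios (median absolute deviation, rescaled to match an SD) was 0.109 in isolated and 0.104 in comparison genes. It was 0.384 in the 16 isolated genes with fewer than 100 reads in A and 0.097 in the other 131. Spearman's rho between the libraries was 0.995 over the 150 genes, which share their annotation and exon lengths.

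The widest ratios stayed below 2-fold among isolated genes that reached 100 reads in A or B. Apl_6G0005910, the last gene inside the limit, had 99 reads in A and 353 in B and was 1.70-fold higher in B (exact binomial 95% interval 1.36 to 2.15 from reads, 1.24 to 2.40 from read pairs). Apl_3G0010300, at 110167070 to 110172130 on chromosome 3 with 3 exons, had 57 and 175 reads and was 1.46-fold higher in B (1.08 to 2.01, and 0.957 to 2.36 from read pairs). In the other direction Apl_19G0000900, at 2067976 to 2076986 on chromosome 19 with 4 exons, had 92 and 118 reads and was 1.64-fold higher in A (1.23 to 2.17, and 1.09 to 2.45 from pairs). Apl_6G0004780, at 29580060 to 29715444 on chromosome 6 with 24 exons, had 239 and 391 reads and was 1.28-fold higher in A (1.09 to 1.51, and 1.01 to 1.62 from pairs). The intervals from read pairs left room for no difference in the second of these 4. These genes were picked as the extremes of 150, and the ratios have no replicate check.

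**Figure D5:**
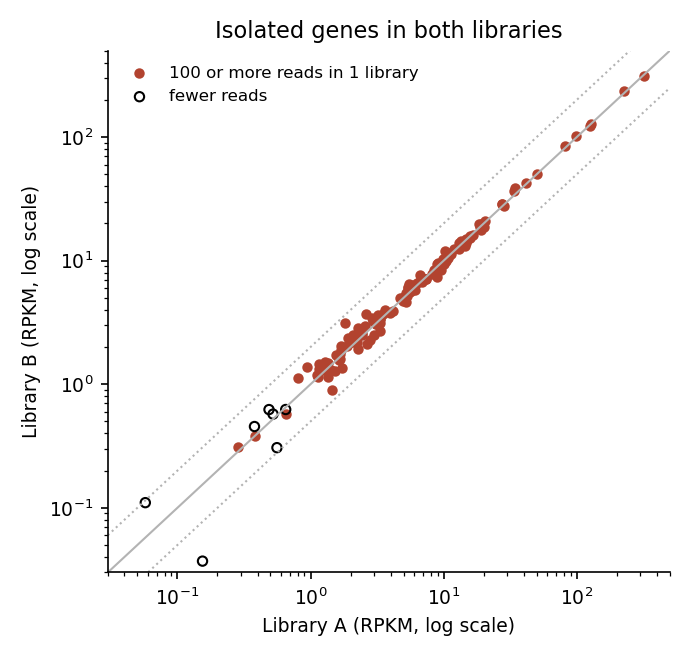
Level of the isolated genes in A (horizontal axis) and B (vertical axis) in RPKM on log scales, 1 point per gene; the solid line marks equal levels, dotted lines 2-fold, and open points have fewer than 100 reads in either library. All points with more reads lie between the dotted lines; the gene with 0 reads in B is not drawn.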

How the data were processed

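The authors deposited raw counts of reads per gene for 2 libraries, made with featureCounts 2.1.1 over the exons of their own annotation, per the file headers. No option for strand, pair counting, multi-mapping or overlapping reads is recorded there, so the mates of a pair count separately, both strands are counted and multi-mapping reads are left out. HISAT2 and SAMtools are named in the submitters' processing notes, and the build name is not given in the sources used here. The members and lists were chosen with earlier results of these data known.

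From the counts, span, introns, gaps (bases between neighbouring genes in the table) and ID steps of 10 were computed with Python 3.11.15 and pandas 2.3.3. CPM and RPKM used the library totals. Log2 ratios used TMM factors (0.997 and 1.003; edgeR 4.0.16, R 4.3.3) and a prior count of 2, and the script was tested on simulated data. No test across samples was made. Genes named are the 5 of largest gap, the limit, the 5 highest and lowest levels, the widest ratios (2 per direction), the 5 widest shared gaps and the extremes of structure; others were chosen after their values were seen. Genes under missing ID numbers were not analysed here.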

Additional observations from a re-analysis of the deposited data

How the results depend on the processing

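Among 135 alternatives, the value stayed in 110 within its 95% interval (binomial for shares and, by ranks, for medians) or its count within 1.5 times, and moved in 25. Some counts could not move. With 0 genes at 2-fold, the counts at 4-fold, with 100 genes or with at least 50 reads had to be 0. The other gene sets were not independent either, as they shared from 53 to 150 genes with the main set. A reversal of sign was looked for only in the rank correlation between gap and level, where 0 were found. The median level of 5.45 RPKM, its ratio to comparison genes of 0.545 and the median log2 ratio stayed within their intervals in each alternative run for them. The interval of the median log2 ratio includes 0, and its sign did change. It was 0.013 in the main set, -9.26e-04 with 100 genes, -0.003 with 300 genes and -0.002 on autosomes of 30 Mb or more. With 150 genes chosen among those without missing ID numbers, 57 of which were in the main set, no gene had under 10 reads, 0% had skips by construction, and the set held 0.739% of reads in A and 0.751% in B. With 100 genes the shares of reads were 0.415% and 0.420%, and with 300 genes 1.617% and 1.622%, by construction, with 1 gene 2-fold higher in B. With the 200 widest genes admitted the shares were 0.603% and 0.611% and the median span 77.4 kb. On autosomes of 30 Mb or more they were 0.755% and 0.761%, with 0% under 10 reads. By the sum of both gaps only 53 genes were in the main set, and the nearer gap went down to 0.333 kb. The shares were then 0.697% and 0.696%, with 6% under 10 reads, 75.3% with skips and 1 gene 2-fold higher in B. Of all tested genes 0.489% were 2-fold higher in B. The cause of these changes was not tested. Without genes alike in inner exon lengths the share in B was 0.715%. The rank correlation between gap and level was -0.062 in CPM. Without a filter on low counts 2 genes were 2-fold higher in A, with at most 6 reads in either library. Genes with 0 reads made up 0% and those under 2 RPKM 22%. No paired analysis was possible because there is 1 sample in each group. Depth limits the 19 genes with fewer than 100 reads in A, 3 of which had too few reads for a ratio.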
